A study of Homo sapiens with 8 samples.

Results

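The subject here is a group of 10 genes of the semaphorin system measured in HMLE cells, chosen by name: the ligands SEMA3A, SEMA3C, SEMA3F, SEMA4B and SEMA7A, the neuropilins NRP1 and NRP2, and the plexins PLXNA1, PLXNB2 and PLXND1. The choice was made with earlier results of these data known. Their symbols were matched to RefSeq transcript identifiers, which gave 23 transcript rows of the 48175 in the deposited table and 10 of 25166 genes with a symbol. HMLE cells are mammary epithelial cells of human origin that were immortalized. The 4 groups were SOX4-shRNA cells given TGF-β for 16 h, untreated SOX4-shRNA cells, scrambled-shRNA cells given TGF-β for 16 h, and untreated scrambled-shRNA cells, with 2 libraries each. All 4 groups had been transduced with a lentiviral hairpin and kept under puromycin at 0.5 µg/mL. The knockdown rests on 1 hairpin, named TRCN0000018213 in the labels, against the control hairpin SHC002, so that an effect of SOX4 and an effect of this hairpin cannot be told apart. Whether the 2 libraries of a group were made from different cultures is not stated, so the p-values measure the spread between libraries, which could be technical alone.

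Semaphorins are secreted or membrane-bound guidance proteins first studied in growing axons. Most class 3 semaphorins are secreted and bind a neuropilin, which lacks signalling activity of its own and forms a complex with a plexin. The plexin then transmits the signal through a cytoplasmic domain that inactivates small GTPases of the Ras and Rap type, while class 4 semaphorins bind plexins directly and SEMA7A is held to the membrane by a lipid anchor and binds PLXNC1 and β1 integrins. In epithelia the system is known for its part in cell migration, adhesion and the growth of vessels.

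Values were FPKM, read numbers scaled by transcript length and library size, and in 34.1% of the cells of the table the decimal mark had been lost. A cell of this kind can be read in up to 3 ways that differ by factors of 10, and readings were weighed by whether the read number came out whole, by its size and by the spread between replicates and between groups. Wholeness alone does not pick a reading, since a 10-fold multiple of a whole read number is whole too, as in every SEMA3A cell, and it mainly bars readings that are too low. The fold changes below therefore rest in part on a weighting that disfavours large gaps between libraries. With it 9 of the 10 members were settled. NRP1, with 6 transcript rows, stayed unsettled and enters no count. The scale of a library corresponded to 12.6 to 16.8 M reads. SOX4 itself, the check of the knockdown, had 2.37 and 1.88 FPKM in TGF-β-treated SOX4-shRNA cells, against 18.7 and 17.6 FPKM in TGF-β-treated scrambled-shRNA cells. In untreated cells it had 0.923 and 1.02 FPKM with the SOX4 shRNA and 8.74 and 8.04 FPKM with the scrambled shRNA. The ratio of the means was 0.117 with TGF-β and 0.116 without. An earlier weighting of the readings had placed SOX4 10-fold lower in TGF-β-treated scrambled-shRNA cells, at a value that was not whole in 1 library, and was revised for that reason (joint posterior of the readings given, 0.988). TGFBI, a secreted matrix protein widely used as a sign of TGF-β response, was listed at 1023 and 1112 FPKM in TGF-β-treated SOX4-shRNA cells and at 1009 FPKM in 1 library of TGF-β-treated scrambled-shRNA cells. Its other values had lost their marks, and the largest readings possible in untreated cells were 822 and 822 FPKM with the SOX4 shRNA and 179 and 195 FPKM with the scrambled shRNA. The epithelial cadherins CDH1 and CDH3 lay at 74.1 to 95.4 and 66.1 to 102 FPKM. All 6 basal and 5 of 6 luminal mammary markers had at least 1 FPKM in every library at any reading, and KRT19 did not exceed 0.376 FPKM. All 4 endothelial markers lay below 1 FPKM in every library. Of 3 neuron and glia markers, RBFOX3 and GFAP did not exceed 0.104 and 0.0791 FPKM, while TUBB3 had at least 4.41 FPKM at any reading. Of 3 leukocyte markers, PTPRC and CD3E did not exceed 0.0167 and 0 FPKM, while CD68 had at least 3.36 FPKM at any reading. Of 5 fibroblast markers, LUM and PDGFRA did not exceed 0.105 and 0.103 FPKM, COL3A1 had 0.884 to 4.11 FPKM, THY1 had 37.8 to 90.5 FPKM, and DCN was unsettled.

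The 9 settled members covered a wide range of levels per length. SEMA3C was the most abundant, with a mean of 77.1 FPKM over the 8 libraries, followed by PLXNB2 at 38.2, SEMA3F at 38.1 and PLXNA1 at 35.3 FPKM. The ranges of the last 3 genes overlapped almost entirely, 30.7 to 45.4, 26.6 to 53.3 and 27.9 to 42.6 FPKM, so that their order is not fixed. SEMA7A averaged 15.8 FPKM, SEMA4B 11.6 and NRP2 7.79 FPKM. SEMA3A, at 2.71 FPKM, and PLXND1, at 1.15 FPKM, were the lowest. For scale, the median of the mean levels of the 5230 genes in the whole-read fit was 9.82 FPKM, with quartiles of 3.56 and 24.5 FPKM.

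**Figure D1:**
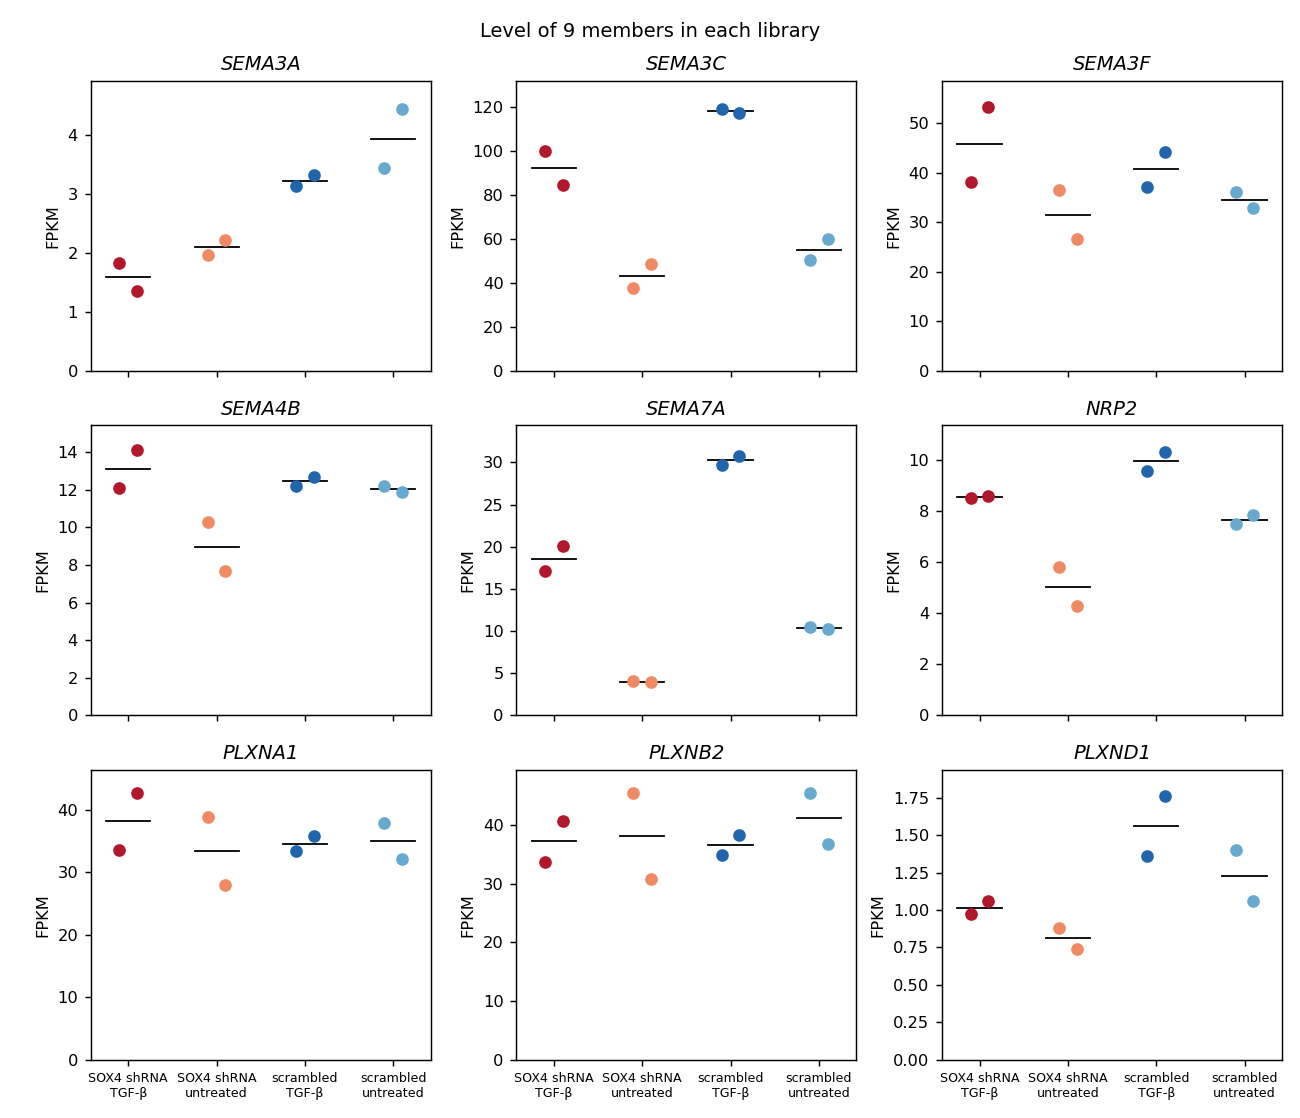
FPKM (vertical axes, linear from 0, scaled per gene) of 9 members in each of the 8 libraries. Points are libraries, coloured by group, and black lines are group means. TGF-β-treated libraries lie above untreated ones in both kinds of cells for SEMA3C, SEMA7A, SEMA3F and NRP2, and below them for SEMA3A. SEMA3A also separates all SOX4-shRNA from all scrambled-shRNA libraries. PLXND1 does so only narrowly, with 1.06 FPKM in 1 library of each kind. The points of PLXNA1 and PLXNB2 overlap between all groups compared.

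The promoters of the called ligands SEMA3C and SEMA7A are shown because these genes moved together with TGF-β. RefSeq promoter windows, 250 bases before to 50 bases after an annotated start, held 14 windows of 8 members on GRCh38.p14. No window of SEMA3A or NRP1 was used here. Each is written 5′ to 3′ on the gene's strand, which is the minus strand for both genes, with matches to the SMAD motif CAGAC in capitals. On the opposite strand such a match reads GTCTG.
SEMA3C, chr7:80919002-80919301: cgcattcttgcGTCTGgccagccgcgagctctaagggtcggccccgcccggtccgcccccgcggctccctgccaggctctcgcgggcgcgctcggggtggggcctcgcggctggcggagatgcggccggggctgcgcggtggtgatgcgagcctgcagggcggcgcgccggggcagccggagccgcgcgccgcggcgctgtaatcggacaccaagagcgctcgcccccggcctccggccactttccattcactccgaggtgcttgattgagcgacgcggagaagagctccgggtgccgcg
SEMA3C, second start, chr7:80922340-80922639: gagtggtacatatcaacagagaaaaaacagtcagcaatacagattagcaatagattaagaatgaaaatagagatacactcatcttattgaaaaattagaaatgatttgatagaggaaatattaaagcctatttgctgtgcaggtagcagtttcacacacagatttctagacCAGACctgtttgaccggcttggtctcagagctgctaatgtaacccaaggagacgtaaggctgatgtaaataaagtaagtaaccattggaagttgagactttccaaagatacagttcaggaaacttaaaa
SEMA7A, chr15:74433909-74434208: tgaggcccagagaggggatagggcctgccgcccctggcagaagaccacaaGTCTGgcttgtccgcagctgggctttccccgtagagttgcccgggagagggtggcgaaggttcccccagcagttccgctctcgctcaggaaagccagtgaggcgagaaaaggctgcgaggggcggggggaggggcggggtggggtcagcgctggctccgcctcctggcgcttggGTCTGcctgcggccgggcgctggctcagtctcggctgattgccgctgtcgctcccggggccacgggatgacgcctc
SEMA7A, second start, chr15:74433655-74433954: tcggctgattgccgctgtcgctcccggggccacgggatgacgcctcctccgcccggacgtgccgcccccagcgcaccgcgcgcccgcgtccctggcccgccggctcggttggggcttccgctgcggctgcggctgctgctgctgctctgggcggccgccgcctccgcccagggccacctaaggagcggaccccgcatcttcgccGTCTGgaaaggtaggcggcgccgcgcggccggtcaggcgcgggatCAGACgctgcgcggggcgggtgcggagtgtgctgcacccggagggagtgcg

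CAGAC was found on either strand in 9 of the 14 windows and in 5 of the 8 genes. Of all 35116 RefSeq windows of this length, 45.3% hold it, a share of windows and not of genes. A gene with several windows has more chances of a match, and no share of genes was computed. In the SEMA3C windows CAGAC begins at position -239 and at position -79 from the start. Matches in the SEMA7A windows begin at -200 and -26, and at -46 and -1. The palindromic SMAD motif GTCTAGAC (0.2% of all windows) had no match in the 14 windows on either strand. Nor did the SOX motifs AACAAAG (5.2%) and AACAATG (3.3%). A match is a string of letters, not a binding site, and the absence of one says only that these letters are not in this window.

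TGF-β raised both SEMA3C, a secreted class 3 semaphorin that binds neuropilins, and SEMA7A, the lipid-anchored semaphorin, in both kinds of cells. SEMA3C (chromosome 7, 80371854 to 80551675, minus strand, GRCh37, which is hg19) had 99.9 and 84.6 FPKM in TGF-β-treated SOX4-shRNA cells, against 37.8 and 48.6 FPKM in untreated SOX4-shRNA cells. In scrambled-shRNA cells it had 119 and 117 FPKM with TGF-β and 50.2 and 59.99 FPKM without. The treated libraries were thus above the untreated ones in each kind of cell, by a ratio of mean FPKM of 2.14 in both. Group means were 92.3 ± 10.9 and 43.2 ± 7.61 FPKM with and without TGF-β in SOX4-shRNA cells, and 118 ± 1.11 and 55.1 ± 6.94 FPKM in scrambled-shRNA cells (SD, n = 2 each), from 2611 to 8762 reads per library. In bulk RNA, fewer cells that express a gene and less RNA per cell cannot be told apart. The log2 fold change was 1.08 (SE 0.15, adjusted p = 0.00584) in SOX4-shRNA cells and 1.09 (SE 0.15, adjusted p = 0.00851) in scrambled-shRNA cells, by limma with Benjamini-Hochberg adjustment over all 5230 genes with whole reads. Here and below, log2 fold changes are of FPKM + 1, a scale that understates the change of low genes.

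SEMA7A (chromosome 15, 74701630 to 74726299, minus strand) had 17.1 and 20.1 FPKM in TGF-β-treated SOX4-shRNA cells, against 4.09 and 3.92 FPKM in untreated SOX4-shRNA cells. In scrambled-shRNA cells it had 29.7 and 30.8 FPKM with TGF-β and 10.5 and 10.3 FPKM without. No group overlapped another, and the order ran, low to high, untreated SOX4 shRNA, untreated scrambled shRNA, TGF-β with SOX4 shRNA, TGF-β with scrambled shRNA. The ratio of treated to untreated means was 4.65 in SOX4-shRNA cells and 2.92 in scrambled-shRNA cells. SEMA7A has 3 transcripts and was tested as a gene total in the second fit, of all 12012 kept genes. There the log2 fold change was 1.97 (SE 0.11, adjusted p = 0.00173) in SOX4-shRNA cells and 1.46 (SE 0.11, adjusted p = 0.00531) in scrambled-shRNA cells.

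These were the 2 members of 9 called in each comparison, both higher with TGF-β. The share of genes called in either direction was 7.86% in SOX4-shRNA cells and 6.90% in scrambled-shRNA cells among genes with whole reads, where SEMA3C was called of 6 members, while the second fit called 2.21% and 1.47%, where SEMA7A was called of 3 members. The median log2 fold change of the 9 members was 0.50 in SOX4-shRNA cells and 0.20 in scrambled-shRNA cells, beside -0.04 and -0.03 over all genes with whole reads. Both libraries with TGF-β lay above both without in 6 of 9 members in SOX4-shRNA cells (20.0% of all genes with whole reads) and in 4 of 9 in scrambled-shRNA cells (28.7%). Both lay below in 1 of 9 in each (24.2% and 34.4% of genes). SEMA4B, SEMA7A and NRP2 are counted among the 9 but are not among the genes with whole reads. Since the members were chosen with earlier results of these data known, the counts and medians set beside all genes are a description only. In scrambled-shRNA cells the calls depended on single libraries. For SEMA3C the adjusted p was 0.0846 without untreated scrambled library 1, 0.111 without TGF-β scrambled library 1 and 0.0947 without TGF-β scrambled library 2, and for SEMA7A it was 0.0595 and 0.0505 without TGF-β scrambled library 1 or 2, while the fold changes stayed at 0.96 to 1.10 and at 1.44 to 1.49.

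**Figure D2:**
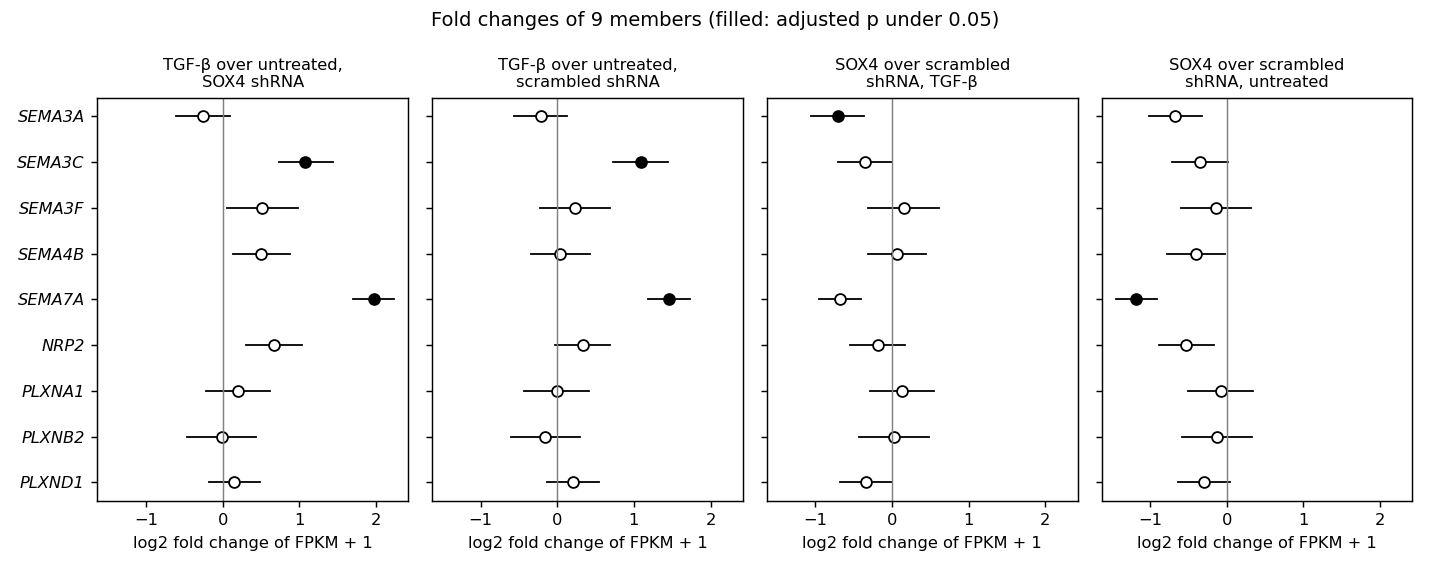
Log2 fold changes of FPKM + 1 (horizontal axes) of 9 members in the 4 pairwise comparisons, with 95% confidence intervals from limma as lines. Filled points passed an adjusted p of 0.05, which SEMA3C and SEMA7A did for TGF-β in both kinds of cells, SEMA7A for the SOX4 shRNA in untreated cells and SEMA3A for the SOX4 shRNA with TGF-β.

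Among the remaining ligands, no change with TGF-β passed the test. SEMA3F, a secreted semaphorin that acts mainly through NRP2, had 38.2 and 53.3 FPKM with TGF-β in SOX4-shRNA cells, against 36.4 and 26.6 FPKM without. In scrambled-shRNA cells it had 37.1 and 44.2 FPKM with TGF-β and 36.1 and 32.8 FPKM without. The treated libraries were above the untreated ones in both kinds of cells, with log2 fold changes of 0.52 (95% interval 0.06 to 0.98, adjusted p = 0.161) and 0.23 (-0.23 to 0.69, adjusted p = 0.528) by limma. In both TGF-β-treated scrambled-shRNA libraries the digits of SEMA3F also give whole reads 10-fold lower, at 3.71 and 4.42 FPKM. The higher readings were taken because they match the level of the other 6 libraries, with a joint posterior of 0.998.

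SEMA4B, a transmembrane class 4 semaphorin, was tested as the total of its 2 transcripts in the fit of all kept genes. It had 12.1 and 14.1 FPKM with TGF-β in SOX4-shRNA cells, against 10.3 and 7.66 FPKM without, and 12.2 and 12.7 FPKM with TGF-β in scrambled-shRNA cells, against 12.2 and 11.9 FPKM without. The log2 fold change was 0.50 (0.13 to 0.88, adjusted p = 0.175) in SOX4-shRNA cells and 0.04 (-0.34 to 0.42, adjusted p = 0.931) in scrambled-shRNA cells. The untreated SOX4-shRNA libraries were the lowest of the 8. SEMA3A, the secreted ligand of NRP1 and the class A plexins, had log2 fold changes of -0.26 (-0.61 to 0.09, adjusted p = 0.342) and -0.22 (-0.57 to 0.13, adjusted p = 0.428) in SOX4-shRNA and scrambled-shRNA cells.

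NRP2, the receptor of SEMA3F and also of VEGFC, had 8.52 and 8.57 FPKM with TGF-β in SOX4-shRNA cells, against 5.79 and 4.28 FPKM without. In scrambled-shRNA cells it had 9.57 and 10.3 FPKM with TGF-β and 7.47 and 7.83 FPKM without. Treated libraries were above untreated ones in both kinds of cells. The gene total gave a log2 fold change of 0.67 (0.31 to 1.03, adjusted p = 0.0881) in SOX4-shRNA cells and 0.33 (-0.03 to 0.69, adjusted p = 0.319) in scrambled-shRNA cells in the second fit, so neither was called. Placing its total among the whole-read genes was an alternative chosen after seeing the data. There the adjusted p in SOX4-shRNA cells was 0.0262, and with limma voom on the whole reads it was 0.0165.

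The plexins among the members carried no call with TGF-β. PLXNA1, a partner of neuropilins in class 3 signalling, had 33.6 and 42.6 FPKM with TGF-β in SOX4-shRNA cells, against 38.8 and 27.9 FPKM without. In scrambled-shRNA cells it had 33.3 and 35.8 FPKM with TGF-β and 37.9 and 32.1 FPKM without. PLXNB2, a receptor of class 4 semaphorins, had 33.7 and 40.7 FPKM with TGF-β in SOX4-shRNA cells, against 45.4 and 30.7 FPKM without. In scrambled-shRNA cells it had 34.8 and 38.2 FPKM with TGF-β and 45.4 and 36.8 FPKM without. The groups of both genes overlapped in all 4 pairwise comparisons. For each gene the digits of 1 library also give whole reads 10-fold lower. These are 2.79 FPKM for PLXNA1 in untreated SOX4-shRNA library 2 and 4.54 FPKM for PLXNB2 in untreated scrambled library 1. The higher readings were taken by the weighting. With TGF-β the 95% intervals of the log2 fold change of PLXNA1 ran from -0.22 to 0.62 in SOX4-shRNA cells and from -0.43 to 0.41 in scrambled-shRNA cells, and those of PLXNB2 from -0.46 to 0.44 and from -0.61 to 0.29. PLXND1, the receptor of SEMA3E, had 0.971 and 1.06 FPKM with TGF-β in SOX4-shRNA cells, against 0.881 and 0.742 FPKM without, a log2 fold change of 0.15 (-0.18 to 0.49, adjusted p = 0.578) by limma. With the scrambled shRNA it had 1.36 and 1.76 FPKM with TGF-β and 1.40 and 1.06 FPKM without, where the libraries overlapped, with a log2 fold change of 0.20 (-0.14 to 0.54, adjusted p = 0.455). PLXND1 rested on 78 to 164 reads per library.

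**Figure D3:**
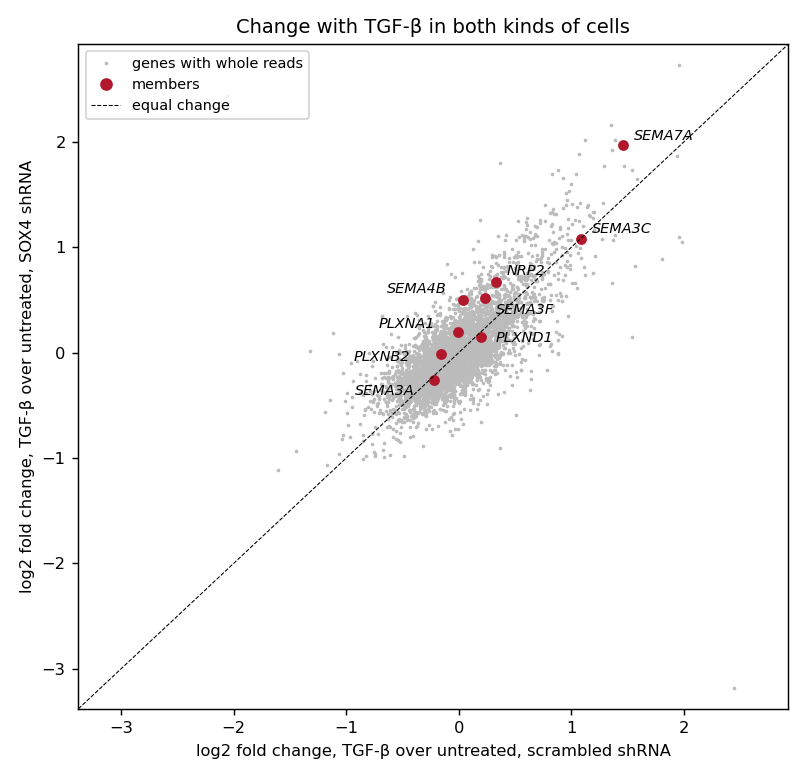
Log2 fold change of FPKM + 1 with TGF-β in SOX4-shRNA cells (vertical axis) against that in scrambled-shRNA cells (horizontal axis). Grey points are the 5230 genes with whole reads, red points are the 9 members, and the dashed line marks equal change. SEMA3C lies near the line at 1.08 against 1.09, and SEMA7A lies above it at 1.97 against 1.46.

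The responses to TGF-β in the 2 kinds of cells were compared by testing the difference of their log2 fold changes. None of the 9 members was called by limma, and 1 of them, SEMA7A, had an unadjusted p below 0.05. Its difference was 0.50 (SE 0.16, 95% interval 0.12 to 0.89, adjusted p = 0.999). Among all genes with whole reads 0.0382% were called and among all kept genes 0.0916%. For SEMA3C the difference was 0.00 (-0.51 to 0.50), for SEMA4B 0.46 (unadjusted p = 0.0773 by limma) and for NRP2 0.34 (-0.17 to 0.85). It was 0.29 (-0.36 to 0.94) for SEMA3F, -0.05 (-0.54 to 0.45) for SEMA3A, 0.21 (-0.38 to 0.80) for PLXNA1, 0.15 (-0.49 to 0.79) for PLXNB2 and -0.04 (-0.52 to 0.44) for PLXND1.

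The SOX4 shRNA went with lower levels of SEMA7A and SEMA3A. For SEMA7A in untreated cells the 4.09 and 3.92 FPKM of SOX4-shRNA cells stood against 10.5 and 10.3 FPKM in scrambled-shRNA cells, a ratio of means of 0.387 and a log2 fold change of -1.18 (SE 0.11, adjusted p = 0.011) in the fit of all kept genes. With TGF-β the ratio was 0.614 and the log2 fold change -0.68 (SE 0.11, adjusted p = 0.0637), which was not called. Placed among the genes with whole reads, a setting chosen after seeing the data, its adjusted p with TGF-β was 0.0209. With limma voom it was 0.0166. With a replicate block SEMA7A was not called in TGF-β-treated cells. Leaving out each library in turn gave log2 fold changes there of -0.79 to -0.57. The call in untreated cells was lost, at adjusted p from 0.0573 to 0.0663, without untreated scrambled library 1 or 2, without TGF-β scrambled library 1 or 2, or without untreated SOX4-shRNA library 2, at log2 fold changes of -1.16 to -1.19.

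SEMA3A (chromosome 7, 83585093 to 84122040, minus strand) had 1.82 and 1.35 FPKM in TGF-β-treated SOX4-shRNA cells, against 3.13 and 3.31 FPKM in TGF-β-treated scrambled-shRNA cells. In untreated cells it had 1.96 and 2.22 FPKM with the SOX4 shRNA and 3.43 and 4.43 FPKM with the scrambled shRNA. All 4 SOX4-shRNA libraries were below all 4 scrambled-shRNA libraries, with ratios of means of 0.493 with TGF-β (1.59 ± 0.332 against 3.22 ± 0.126 FPKM) and 0.533 without (2.09 ± 0.181 against 3.93 ± 0.705 FPKM, SD, n = 2 each), from 112 to 314 reads per library. The log2 fold change was -0.71 (SE 0.15, adjusted p = 0.0445) with TGF-β and -0.67 (SE 0.15, adjusted p = 0.0535) without, by limma over the genes with whole reads. The call with TGF-β stood at the threshold. It was lost in the fit of all kept genes (adjusted p = 0.157), with a replicate block (adjusted p = 0.101) and without any 1 of the 8 libraries (adjusted p from 0.052 to 0.318).

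Of the 9 members, 1 was called in untreated cells and 1 with TGF-β, both lower with the SOX4 shRNA. Of the genes with whole reads 4.15% and 3.82% were called in either direction, and of all kept genes 1.29% and 0.966%. The share of genes called lower was 3.12% in untreated cells and 2.70% with TGF-β among genes with whole reads, and 0.957% and 0.791% among all kept genes. No member had both SOX4-shRNA libraries above both scrambled-shRNA libraries (23.5% of genes with whole reads in untreated cells and 23.4% with TGF-β). Both were below in 6 of 9 members in untreated cells (23.1% of genes with whole reads) and in 5 of 9 with TGF-β (23.3%). The median log2 fold change of the members was -0.35 in untreated cells and -0.19 with TGF-β, beside 0.00 and 0.01 over all genes with whole reads. These counts and medians too are a description only, given how the members were chosen.

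The members that were lower without a call included SEMA3C, with a log2 fold change of -0.35 (-0.71 to 0.01, adjusted p = 0.273 by limma) in untreated cells and -0.35 (-0.71 to 0.00, adjusted p = 0.306) with TGF-β. NRP2 gave -0.53 (-0.89 to -0.17, adjusted p = 0.184) in untreated cells and -0.19 (-0.55 to 0.17, adjusted p = 0.722) with TGF-β. PLXND1 gave -0.30 (-0.64 to 0.04, adjusted p = 0.325) and -0.34 (-0.68 to 0.00, adjusted p = 0.296), with 1.36 and 1.76 FPKM in TGF-β-treated scrambled-shRNA cells. SEMA4B gave -0.40 (-0.78 to -0.02, adjusted p = 0.324) in untreated cells and 0.06 (-0.31 to 0.44, adjusted p = 0.936) with TGF-β. For SEMA3F, PLXNA1 and PLXNB2 the values lay between -0.14 and 0.15, and the libraries of the groups overlapped.

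The members with several transcripts were settled from their summed reads. In SEMA7A the transcript NM_001146030 made up at least 75.8% of the gene's FPKM in every library, with a median of 89.0%. It had 15.1 and 18.3 FPKM with TGF-β in SOX4-shRNA cells against 3.10 and 3.92 FPKM without, and 25.1 and 24.3 FPKM with TGF-β in scrambled-shRNA cells against 10.04 and 9.18 FPKM without. NM_003612 was highest in TGF-β-treated scrambled-shRNA cells, at 4.60 and 6.47 FPKM, and had 1.84 and 1.80 FPKM in TGF-β-treated SOX4-shRNA cells. NM_001146029 did not exceed 0.122 FPKM.

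NRP2 was split over 6 transcripts, of which NM_003872 held 45.9% to 74.5%. NM_201267, which codes for a form with another membrane-proximal and cytoplasmic part, held up to 33.7% and was near 0 in untreated scrambled library 2, where NM_018534, longer by a short stretch, was listed at 2.60 FPKM. In the other 7 libraries NM_018534 did not exceed 0.0328 FPKM. Transcripts this alike are told apart by few reads, so the split is an estimate and the gene total is the firmer value. SEMA4B was mostly NM_198925, at least 78.7% in every library.

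**Figure D4:**
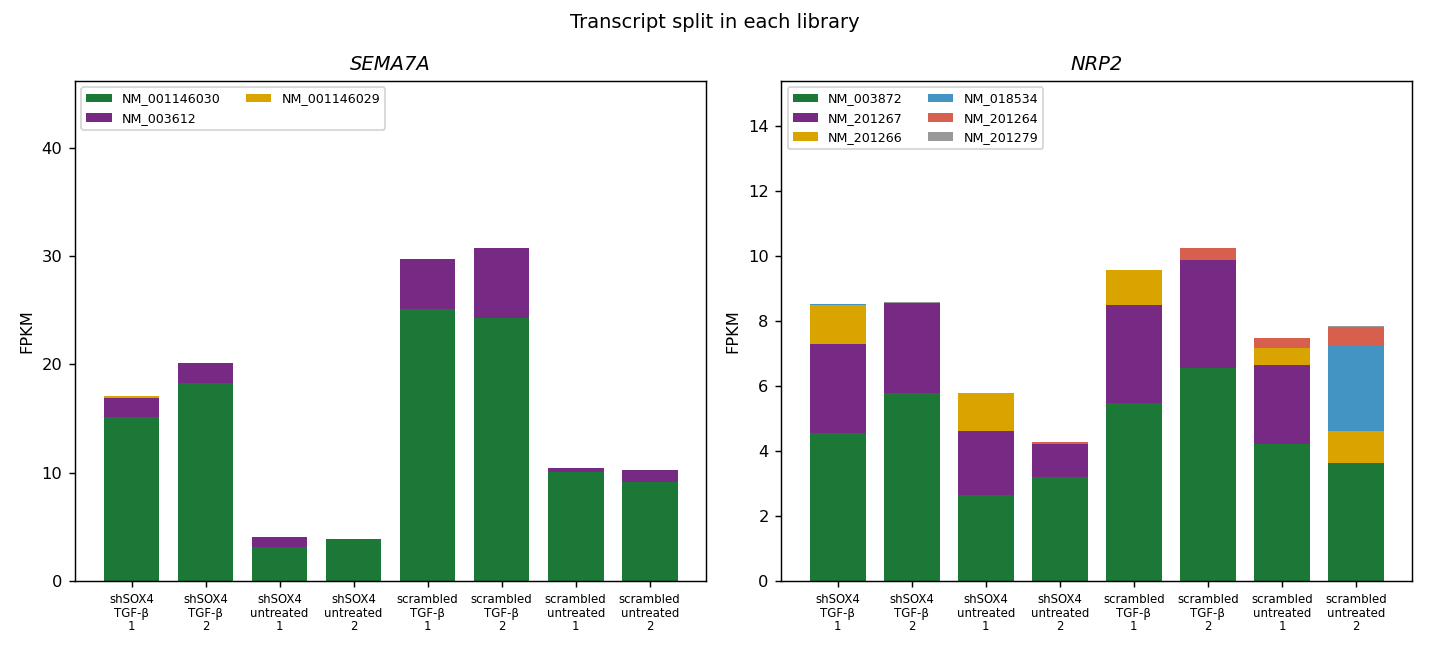
Stacked bars of the FPKM of each transcript of SEMA7A (left) and NRP2 (right) in the 8 libraries, labelled by group and replicate number. NM_001146030 makes up most of SEMA7A in every library, and the part of NRP2 given to NM_201267 in 7 libraries is given to NM_018534 in untreated scrambled library 2.

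NRP1, the receptor of SEMA3A and a co-receptor of VEGF, could not be read. Its transcript NM_003873 has digits that stand for 1.22, 12.2 or 122 and 1.04, 10.4 or 104 FPKM in TGF-β-treated SOX4-shRNA cells, and for 5.42, 54.2 or 542 and 1.41 or 14.1 FPKM in untreated SOX4-shRNA cells. In TGF-β-treated scrambled-shRNA cells they stand for 2.44, 24.4 or 244 and 1.93, 19.3 or 193 FPKM, and in untreated scrambled-shRNA cells for 1.90 FPKM or its 10-fold multiples and 2.68, 26.8 or 268 FPKM. The read numbers did not settle these options. In the fit of all kept genes NRP1 entered at the lowest reading of each cell, which is a guess, and it was not called in the 4 pairwise comparisons (SE 0.44 on the log2 scale) or in the difference between the kinds of cells. Other readings would give other fold changes.

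On GRCh37 the remaining members lie on chromosome 3 (SEMA3F, 50192478 to 50226508, and PLXNA1, 126701536 to 126756232, both on the plus strand, and PLXND1, 129274057 to 129325519, minus strand) and on chromosome 15 (SEMA4B, 90703836 to 90772911, plus strand). NRP2 is on chromosome 2 (206546714 to 206662857, plus strand), NRP1 on chromosome 10 (33466420 to 33625190, minus strand) and PLXNB2 on chromosome 22 (50713408 to 50746075, minus strand). Exons of 3 members overlap an annotated antisense RNA in GENCODE 44, SEMA3F with SEMA3F-AS1 over 110 bases, NRP1 over 561 bases and NRP2 over 147 bases. Whether counting used the strand is not given in the sources used here, so reads of these genes and of their antisense partners may not have been told apart.

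Of the 69 other genes of the system in the list used here, 10 were among the genes with whole reads: 6 effectors, 3 family members and 1 VEGF ligand. None of the 12 other receptors in the list was among them. The rest had several transcripts, unsettled marks or levels below the filter. Those that passed the filter entered the fit of all kept genes, and their results there are not given. The list was chosen with earlier results of these data known. Of the 10 genes with whole reads, 3 were called higher with TGF-β in SOX4-shRNA cells and 2 in scrambled-shRNA cells, and none lower, beside 5.68% and 4.68% of all genes called higher. VEGFC, a ligand of NRP2 and of VEGF receptors, had 59.3 and 57.8 FPKM with TGF-β in SOX4-shRNA cells, against 33.8 and 30.2 FPKM without, and 74.2 and 71.0 FPKM with TGF-β in scrambled-shRNA cells, against 51.6 and 49.9 FPKM without. Its log2 fold changes with TGF-β were 0.85 (adjusted p = 0.0032) and 0.51 (adjusted p = 0.0279) by limma. VEGFC was also the gene of the list called lower with the SOX4 shRNA in untreated cells, at -0.65 (adjusted p = 0.0152), and none was called with TGF-β (-0.30 for VEGFC, adjusted p = 0.185).

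PLXNA2, a plexin related to PLXNA1, had 14.1 and 15.6 FPKM with TGF-β in SOX4-shRNA cells, against 10.1 and 8.37 FPKM without, and 15.96 and 16.9 FPKM with TGF-β in scrambled-shRNA cells, against 9.81 and 11.1 FPKM without. Its log2 fold changes were 0.64 (adjusted p = 0.0252) and 0.60 (adjusted p = 0.0314). RRAS, a small GTPase on which plexins act, was called in SOX4-shRNA cells, where it had 31.4 and 40.6 FPKM with TGF-β against 20.6 and 10.9 FPKM without (log2 fold change 1.20, adjusted p = 0.0308). In scrambled-shRNA cells its log2 fold change was 0.68 (adjusted p = 0.151). The difference between the kinds of cells was 0.51 (SE 0.36) and was not called. Unlike those of the members, the calls of VEGFC, PLXNA2 and RRAS were not followed through the alternatives or with libraries left out.

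Further semaphorins and plexins were mostly low or unsettled. SEMA4C lay at 3.91 to 5.75 FPKM and PLXNA3 at 4.12 to 7.60 FPKM, and neither was called in any comparison. SEMA3G, SEMA4G, SEMA5B, SEMA6A, SEMA6B, SEMA6C, SEMA6D and PLXNA4 lay below 1 FPKM in every library, with maxima from 0.0593 FPKM for SEMA6D to 0.827 FPKM for SEMA6B. For SEMA3B, SEMA3D, SEMA3E, SEMA4A, SEMA4D, SEMA4F, SEMA5A, PLXNB1, PLXNB3 and PLXNC1 the marks were not settled. The lowest readings gave medians of 6.61 FPKM for SEMA3B, 3.14 for SEMA4D, 2.76 for SEMA4F, 2.59 for SEMA4A and 2.22 for PLXNB1, and of 1.09 FPKM or less for SEMA3D, SEMA3E, SEMA5A, PLXNB3 and PLXNC1. PLXNC1, the plexin that binds SEMA7A, had a median of 0.900 FPKM at these readings, while its highest possible reading was 112 FPKM. Over the unsettled genes the highest possible readings ran from 10.04 FPKM for SEMA5A to 973 FPKM for SEMA3B. The levels of these genes are therefore open.

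SEMA3C was the member of the whole-read fit called in more than 1 pairwise comparison, and the genes with the most similar pattern over the 8 libraries were ELL2 (Pearson r = 0.992), SMURF2 (0.990) and BMPR2 (0.988), at 28.2 to 52.5, 17.1 to 54.5 and 7.56 to 17.8 FPKM. These coefficients describe 8 libraries that share the 4 groups, among 5230 genes searched.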

How the data were processed

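RNA of 8 HMLE libraries was measured as stranded, ribosome-depleted total RNA with 75-nt single reads, per the labels' protocols, although another label names polyA RNA. The tools named in the submitters' processing notes are Cufflinks 2.2.1, TopHat2 2.0.9 and Cuffdiff, with the build hg19. The deposited values are another unit than plain counts: FPKM per RefSeq transcript, as these tools and the values show. Aligner settings, library scaling and use of the strand are not given here by any source. No column was left out. Cells from 1 up to 1000 FPKM had mostly lost the decimal mark (34.1%), and 13.9% in exponent notation stood for values below 1e-04.

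For a gene with 1 transcript, the FPKM equals the read number multiplied by a library factor and divided by transcript length less an offset. The offset was fitted per library at 202.281 to 202.480 nt. Lengths from 600 nt within 0.5 log10 of the annotated one were searched so that at least 6 of 8 cells were whole, within 0.004 reads plus rounding. Of 5739 genes, 5264 (91.7%) gave whole reads, against 36 with random last digits. Readings were weighted by the spread of replicates and groups, and genes with all cells above a posterior of 0.95 were used. This weighting was revised after its first version had read SOX4 at a value that was not whole in 1 library. SEMA4B, SEMA7A and NRP2 were settled as summed reads at transcript lengths from GENCODE exons, chosen after seeing which gave whole reads (1 length of SEMA7A was searched). SEMA4B was whole in 7 of 8 libraries, the other two in 8. Random digits gave whole reads in as many libraries in 0 of 200 versions of SEMA4B, 2 of 50 of SEMA7A and 43 of 200 of NRP2, so that wholeness is weak evidence for NRP2. At readings as low they did so in 0 versions of each. Transcripts were matched to symbols for 97.8% of rows.

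log2(FPKM + 1) was fitted in limma 3.58.1 (in R 4.3.3, with 4 group means, 4 residual degrees of freedom and empirical Bayes moderation that follows intensity) on the 5230 genes with whole reads and at least 1 FPKM in 2 libraries. Members with several transcripts were tested in a second fit of all 12012 kept genes, where genes without whole reads are represented by 1 transcript read by spread alone, so its marks are partly guesses. Benjamini-Hochberg adjustment ran over all genes of a fit, calls were at 0.05, and every adjusted p is from limma. Alternatives were a pseudocount of 0.1, no filter, median centring, no trend, voom, the fit of all kept genes, leaving out each library, and a replicate block. A crossed block and gene totals in the whole-read fit were added after seeing the data. Scripts were tested on simulated data. The chi-square per gene between replicates was 20.21 and 21.27 in SOX4-shRNA cells with and without TGF-β and 3.45 and 10.09 in scrambled-shRNA cells, so replicates differed by more than counting noise, and more so in SOX4-shRNA cells, while the fit pools 1 spread over the groups. The rule for named genes was all 10 members in every comparison, where NRP1 is given by its possible readings. Of the other pathway genes, up to 4 called ones per comparison were named by p, and of genes alike, 3 per qualifying member. The members and lists were chosen with earlier results of these data known. Coordinates are from GENCODE 44 lifted to GRCh37, and promoters are from RefSeq on GRCh38.p14.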

Additional observations from a re-analysis of the deposited data

How the results depend on the processing

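With all libraries kept, the members called with TGF-β stayed at 2 in scrambled-shRNA cells and at 0 for the difference between the kinds of cells under each alternative run. In SOX4-shRNA cells they were 2, against 3 with voom, with gene totals among the whole-read genes and with a crossed block. With the SOX4 shRNA in untreated cells 1 member was called, against 2 with libraries centred on their median, 2 without the intensity trend, 2 with voom and 3 with a crossed block. With the SOX4 shRNA and TGF-β 1 was called, against 0 in the fit of all kept genes, 2 with voom, 2 with gene totals among the whole-read genes and 3 with a crossed block. Deviations of libraries with the same replicate number correlated at 0.53 between the untreated groups and at 0.37 between the TGF-β groups. Between untreated and TGF-β groups they were opposed, at -0.22 to -0.65. The main fit does not model these shared deviations. A replicate block gave 2, 2, 1, 0 and 0 called members. The order is TGF-β in scrambled-shRNA cells, TGF-β in SOX4-shRNA cells, the SOX4 shRNA untreated, the SOX4 shRNA with TGF-β, and the difference. The crossed block, chosen after seeing the data because untreated and TGF-β deviations were opposed, gave 2, 3, 3, 3 and 0. Leaving out each library gave 0 to 2, 2 to 2, 0 to 1, 0 to 0 and 0 to 0 in the same order, and an arm of 1 library was assumed to vary like the others. Over all genes, the replicate block called 155 for TGF-β in scrambled-shRNA cells and the crossed block 1269, against 361, and leaving out a TGF-β scrambled library left 13 or 15. The cause of these shifts was not tested.

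Directions reversed for uncalled values. The difference for PLXND1 was 0.02 with voom, against -0.04. Leaving out libraries, PLXNA1 ranged from -0.13 to 0.10 and -0.03 to 0.43 with TGF-β in scrambled-shRNA and SOX4-shRNA cells, from -0.31 to 0.15 and -0.04 to 0.29 with the SOX4 shRNA untreated and with TGF-β, and from -0.02 to 0.44 for the difference. PLXNB2 ranged from -0.28 to 0.26 with TGF-β in SOX4-shRNA cells, from -0.40 to 0.15 and -0.11 to 0.16 with the SOX4 shRNA untreated and with TGF-β, and from -0.12 to 0.42 for the difference. SEMA3F with the SOX4 shRNA ranged from -0.36 to 0.08 untreated and -0.08 to 0.39 with TGF-β, and SEMA4B from -0.04 to 0.16 with TGF-β. The difference ranged from -0.19 to 0.10 for SEMA3A, from -0.18 to 0.17 for SEMA3C and from -0.16 to 0.07 for PLXND1. With 2 libraries a group, and 78 to 314 reads for PLXND1 and SEMA3A, small changes could not be resolved.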
